A study of Mus musculus with 4 samples.

Results

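The genes described here code for the enzymes and carriers that bring pyruvate into mitochondria, turn the citrate cycle, and move malate, aspartate and citrate between mitochondria and cytosol. All 36 genes of the set had values, out of 11502 genes with a value and 10604 genes that were compared. The members were given by name with no threshold set on their levels, but every deposited transcript reached at least 0.50 FPKM in 1 library or more. The set was proposed with earlier results of these data known. The cells were of HT-22, a mouse hippocampal neuron line, and RNA-Seq was done with 1 library for each of 4 groups. Cells labelled as wild type that had received a negative control lentivirus are called Ctrl, and cells with a lentivirus for PGC-1α overexpression are called PGC-1α. In the groups Ctrl+OGD and PGC-1α+OGD, the same kinds of cells underwent oxygen and glucose deprivation (OGD) for 2 h and were then kept for 24 h in normal medium. Every group had thus been infected with a lentivirus and selected with puromycin, and no group of uninfected cells was analysed here. A level is given in FPKM, a count of sequenced fragments normalised for transcript length and sequencing depth, added up over the transcripts of a gene. A difference is given as a log2 fold change on the scale of log2(FPKM + 1), and genes that differed by 1.5-fold or more on that scale are called higher or lower. With 1 library per group no difference has a replicate check, no p value is given, and all counts describe these 4 libraries alone.

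PGC-1α is a transcriptional coactivator, coded by Ppargc1a, that acts through nuclear receptors such as the estrogen-related receptors and through the factors NRF1 and GABP, and it is known for its effect on mitochondrial genes. Pyruvate made by glycolysis crosses the inner mitochondrial membrane through a carrier, and the pyruvate dehydrogenase complex then converts it to acetyl-CoA. The citrate cycle oxidizes the acetyl group and passes electrons to the respiratory chain, while pyruvate carboxylase refills the cycle with oxaloacetate. The malate-aspartate shuttle carries the reducing power of cytosolic NADH into mitochondria, and neurons rely on it for the full oxidation of glucose.

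Levels are given with the control library before the overexpressing one. Ppargc1a was at 0.900 FPKM in Ctrl against 35.1 FPKM in PGC-1α without OGD, and at 0.103 against 8.41 FPKM after OGD. Both libraries labelled as overexpressing were thus far above both controls, and the overexpressing library after OGD was below the one without OGD. The deposited values summed to between 331892 and 353381 FPKM per library. The number of reads behind them is unknown, since at most 28.3% of 300 low values of a library lay within 0.1 of whole steps. Of 15 neuron markers, 13 had no value here, Rbfox3, Map2 and Tubb3 among them, and the remaining 2 summed to 5.10 to 8.31 FPKM. Of 6 markers of fibroblasts and endothelium, 4 had a value and summed to 412 to 486 FPKM, with Col1a1 at 156 to 198 FPKM, Col1a2 at 236 to 265 FPKM and Col3a1 at 2.94 to 5.39 FPKM, and Pecam1 and Cdh5 without a value. Of 7 astrocyte markers, 4 had a value and summed to 24.6 to 40.8 FPKM. The libraries came from whole cultures, in which fewer cells of a kind and less RNA per cell cannot be told apart.

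In PGC-1α vs Ctrl, 34 of the 36 members had a log2 fold change above 0, and the median was 0.37. Over all genes the median was -0.03, and 45.8% of genes were above 0. At the threshold of 1.5-fold, 8 members (22.2%) were higher and 0 were lower. Of all genes compared, 4.91% were called higher and 5.63% lower. The 8 members were Idh3a, Got1, Dlat, Mdh2, Ogdh, Mpc1, Mdh1 and Fh1, with log2 fold changes from 1.26 to 0.60. Cs (0.56), Pdhx (0.55) and Slc25a11 (0.53) lay just under the threshold of 0.585. The log2 fold changes below 0 were those of Pdpr (-0.24) and Pdp1 (-0.07). All members had a mean of at least 5 FPKM, and of the 8218 genes at that level 4.48% were called higher and 4.42% lower.

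After OGD the difference between overexpressing and control cells had the same sign for most members and was smaller. In PGC-1α+OGD vs Ctrl+OGD the median was 0.17, and 27 of 36 members were above 0. Idh3a (0.73) and Pdk2 (0.60) were called higher (5.56% of members), and 0 were called lower. The background was 3.08% higher and 3.82% lower, or 2.43% and 2.84% for the 8218 genes of similar level. The comparisons without and with OGD share no library. Of the members, 26 (72.2%) were above 0 in both, against 23.3% of all genes. Taken singly, 94.4% of members were above 0 without OGD and 75% after OGD, against 45.8% and 47.1% of all genes. The shares above 0 in both follow largely from these single shares, so they do not show agreement gene by gene. The log2 fold change was larger without OGD than with OGD for 30 members (83.3%), against 49.3% of all genes. Idh3a was the 1 member called higher in both, as were 75 of the 10604 genes.

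**Figure D1:**
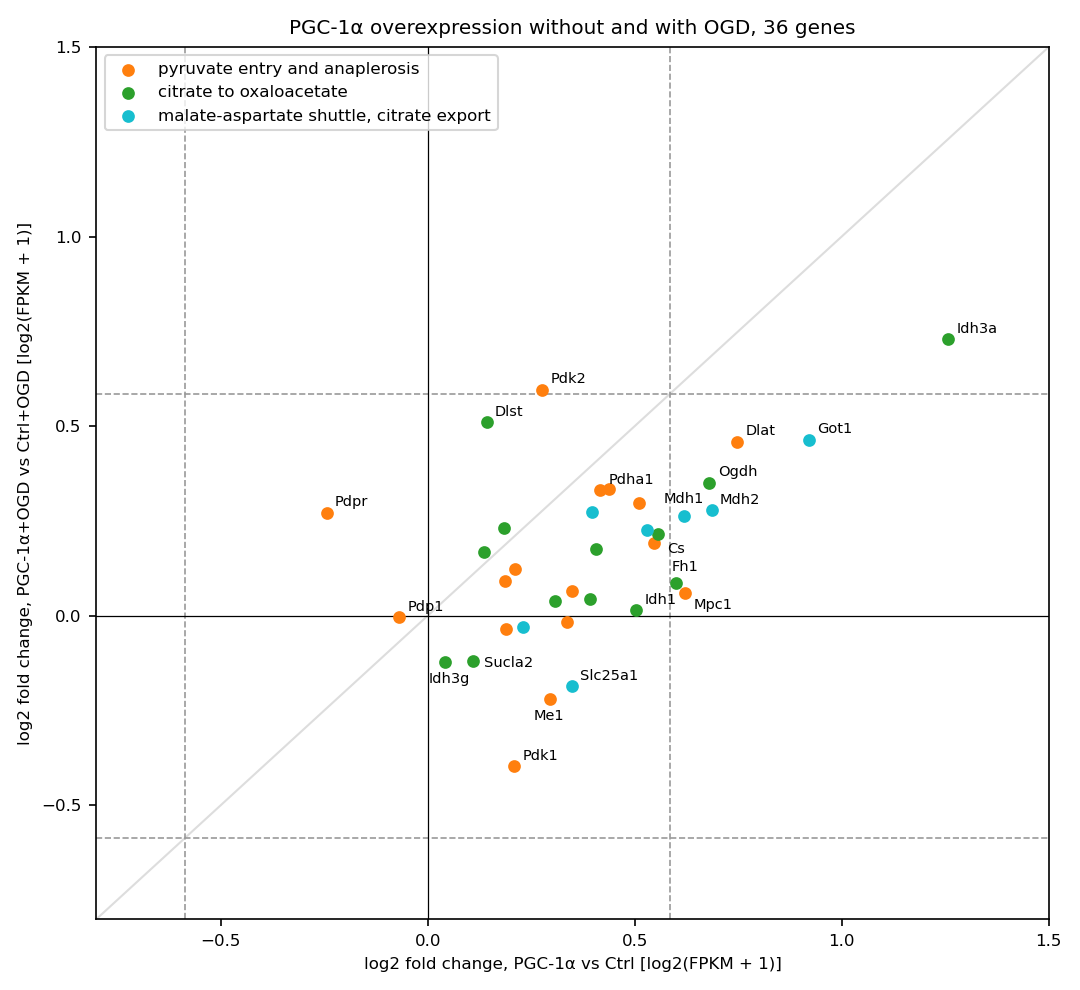
Log2 fold change of each of the 36 members in PGC-1α vs Ctrl (horizontal axis) and in PGC-1α+OGD vs Ctrl+OGD (vertical axis), with dashed lines at 1.5-fold and a grey diagonal where both are equal. Most points lie right of 0 and below the diagonal, with Idh3a (1.26 and 0.73) farthest to the upper right and Pdk1 (0.21 and -0.40) at the bottom.

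For Ctrl+OGD vs Ctrl, the log2 fold change of 28 members was above 0 with a median of 0.21, against a median of -0.02 over all genes. Mpc1, Me1, Idh3a and Fh1 were called higher (11.1% of members, background 6.20%), and Pdk2, Pdpr and Pcx were called lower (8.33%, background 7.71%). A single member is 2.78% of the set, so both shares were near the background. In the 8218 genes of similar level, the background was 6.32% higher and 5.95% lower. Between the overexpressing libraries with and without OGD the median was -0.0021, and 18 of 36 members were above 0. There 0 members were called higher and 1, Pcx, was called lower (2.78%), with a background of 3.82% and 5.22%, or 3.20% and 3.74% in those 8218 genes. Each comparison of OGD shares 1 library with each comparison of PGC-1α, so their values are not independent of each other.

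**Figure D2:**
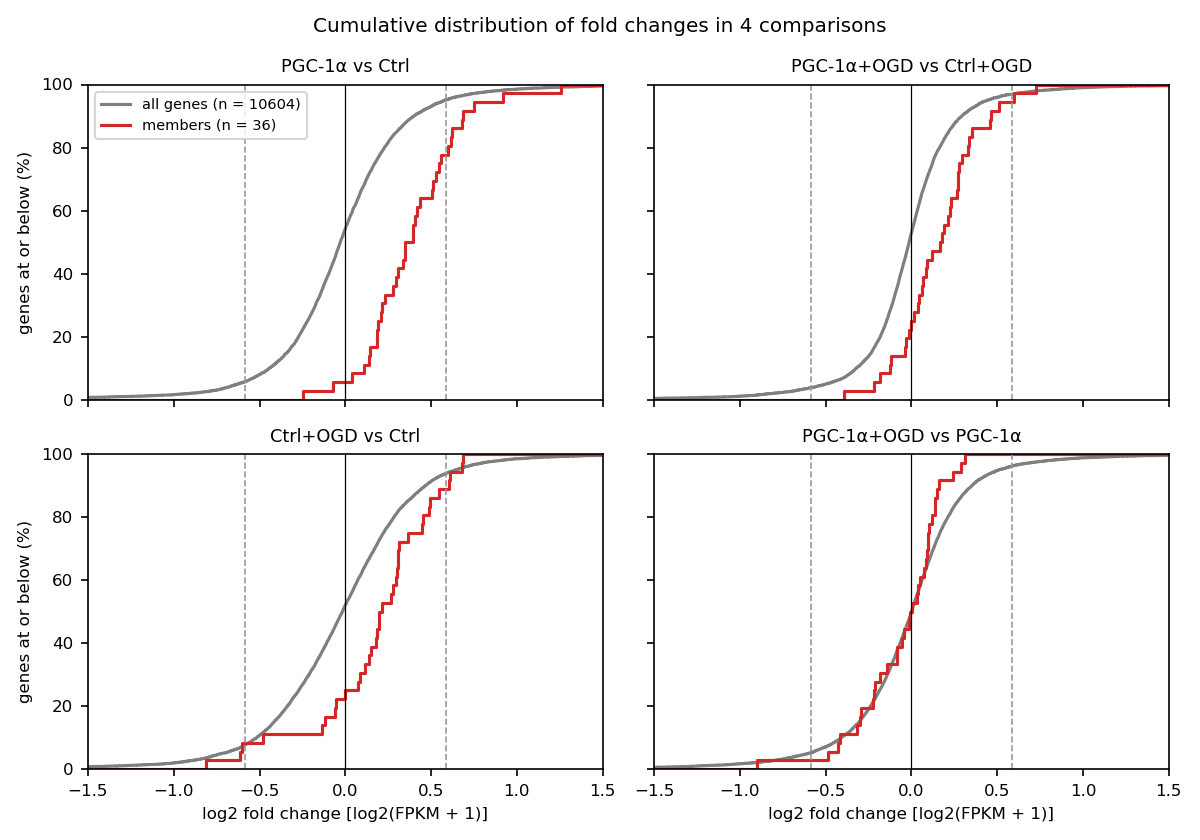
Share of genes (vertical axis, percent) at or below a log2 fold change (horizontal axis, shown from -1.5 to 1.5) for the 36 members and all 10604 genes in each of the 4 comparisons, with dashed lines at 1.5-fold. The curve of the members lies to the right of that of all genes in PGC-1α vs Ctrl (medians 0.37 and -0.03) and close to it in PGC-1α+OGD vs PGC-1α (medians -0.0021 and 0.00070).

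The Ctrl library held the lowest level of the 4 for 27 of 36 members (75%), compared with 28.2% of all genes. PGC-1α was the lowest library for 0 members. The highest level was in PGC-1α for 16 members, in PGC-1α+OGD for 13, in Ctrl+OGD for 5 and in Ctrl for 2. Added up, the 36 members came to 1458 FPKM in Ctrl (0.439% of the library) against 2014 FPKM in PGC-1α (0.596%), and after OGD to 1767 FPKM (0.50%) against 2027 FPKM (0.584%). Both overexpressing libraries were thus near each other, and the control library after OGD lay between them and Ctrl. Mdh2 had the highest mean level of the members, followed by Dld.

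**Figure D3:**
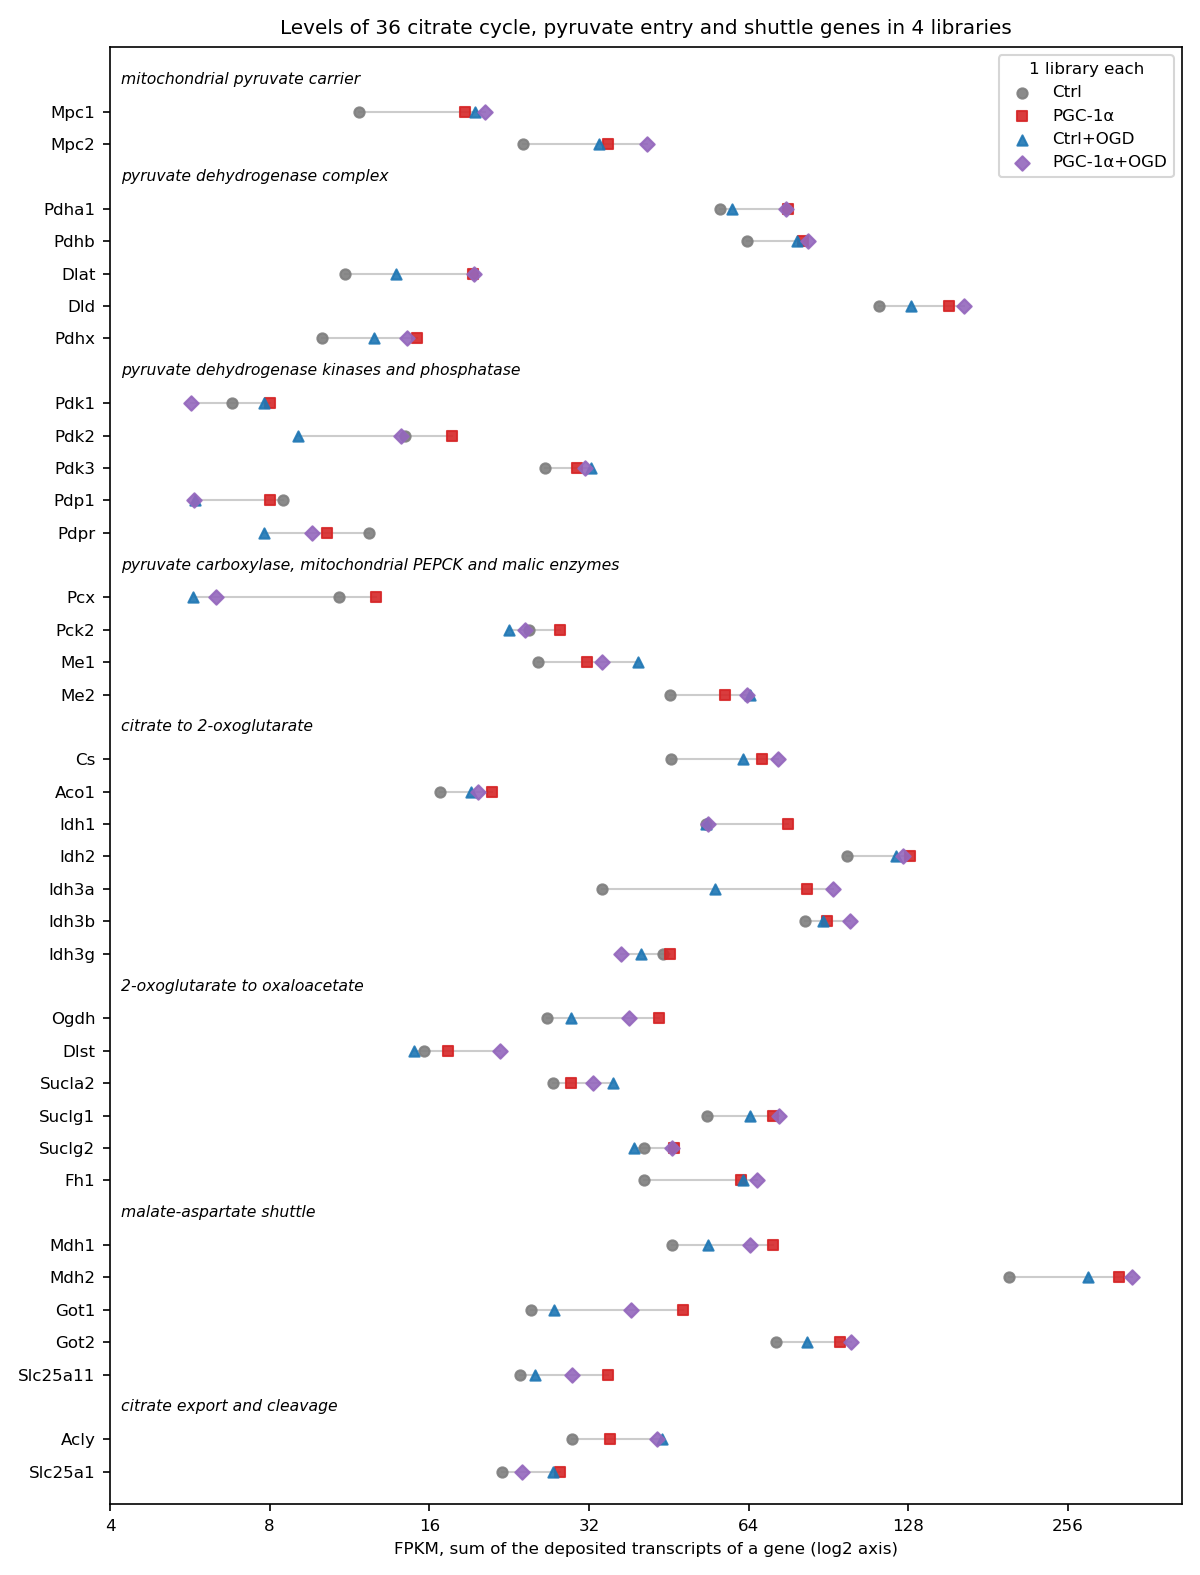
Level of each member in the 4 libraries (horizontal axis, FPKM on a log2 scale), grouped by role, with 1 point per library and a grey line from the lowest to the highest. The grey circle of Ctrl is the leftmost point for 27 of the 36 genes, and Idh3a spans from 33.9 FPKM in Ctrl to 92.3 FPKM in PGC-1α+OGD.

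Mpc1 and Mpc2 form the carrier that takes pyruvate into mitochondria. Mpc1 (chr17:8282904-8297661, GRCm38) was at 11.8 FPKM in Ctrl against 18.7 FPKM in PGC-1α without OGD, and at 19.5 against 20.4 FPKM after OGD. Ctrl was low and the other 3 libraries were close together, which gave log2 fold changes of 0.62 for PGC-1α and 0.68 for OGD in control cells, but 0.06 for PGC-1α after OGD. Mpc2 likewise had Ctrl below the other libraries, at 24.1 against 34.7 FPKM without and 33.4 against 41.2 FPKM after OGD, and passed 1.5-fold in 0 of the 4 comparisons. The exons of Mpc1 overlap those of a gene on the opposite strand by 480 of 2082 bases. The libraries were made with a stranded kit, but it is not stated whether the values were made with regard to strand.

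The 5 genes of the pyruvate dehydrogenase complex all had log2 fold changes for PGC-1α above 0, with a median of 0.44 without OGD, where 1 was called higher, and of 0.33 after OGD, where 0 were. Dlat, the acetyltransferase core of the complex (chr9:50634633-50659780), was at 11.1 FPKM in Ctrl against 19.3 FPKM in PGC-1α, and at 13.8 against 19.4 FPKM after OGD. It was called higher without OGD (0.75), and its overexpressing libraries, 0.01 apart on the log2 scale, both lay above both controls. Pdhx, which binds Dld to the core, was at 10.1 against 15.2 FPKM without and 12.6 against 14.5 FPKM after OGD. Dld, the dihydrolipoamide dehydrogenase that other 2-oxo acid dehydrogenases use as well, ranged from 113 FPKM in Ctrl to 163 FPKM in PGC-1α+OGD. Pdha1 and Pdhb, the subunits of the decarboxylating enzyme, had log2 fold changes of 0.42 and 0.35 without OGD and of 0.33 and 0.07 with OGD. The exons of Pdha1 overlap Map3k15 on the opposite strand by 603 of 3734 bases.

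The kinases and phosphatase that set the activity of the complex did not share 1 pattern. Pdk1, Pdk2 and Pdk3 phosphorylate and inhibit the complex, Pdp1 is a phosphatase that reactivates it, and Pdpr is its regulatory subunit. Over these 5 genes the log2 fold changes had a median of 0.19 for PGC-1α without OGD and -0.48 for OGD in control cells. For OGD in control cells, Pdk2, Pdp1 and Pdpr were below 0, and Pdk1 (0.18) and Pdk3 (0.28) were above 0. Pdk2 (chr11:95026258-95041354) was at 14.4 FPKM in Ctrl against 17.6 FPKM in PGC-1α, and at 9.04 against 14.2 FPKM after OGD. Ctrl+OGD was thus the low library of Pdk2, called lower against Ctrl (-0.62), and PGC-1α+OGD was called higher against it (0.60), with both values just past the threshold. Pdpr (chr8:111094630-111137074) was at 12.3 against 10.3 FPKM without and 7.79 against 9.61 FPKM after OGD, and was called lower after OGD in control cells (-0.60), a call that median-of-ratios scaling ended (-0.57). Pdp1 had log2 fold changes for OGD of -0.48 in control and -0.41 in overexpressing cells, which did not pass the threshold, although with equal column sums (-0.61) or its highest transcript (-0.84) the value in control cells did. Pdk1 (5.69 to 8.01 FPKM) and Pdk3 (26.5 to 32.3 FPKM) passed 1.5-fold in 0 comparisons. The ratio of Pdk2 to Pdk3 was 0.543 against 0.581 without OGD, and 0.280 against 0.451 after OGD.

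Pyruvate carboxylase, which makes oxaloacetate from pyruvate, had the largest difference after OGD among the members. Its gene Pcx (chr19:4510472-4621752) was at 10.8 FPKM in Ctrl against 12.7 FPKM in PGC-1α, and at 5.73 against 6.33 FPKM after OGD. Both libraries after OGD were below both libraries without OGD, with log2 fold changes of -0.81 in control and -0.90 in overexpressing cells. For PGC-1α the log2 fold changes of Pcx were 0.21 and 0.12. Me1, the cytosolic malic enzyme that makes NADPH and pyruvate from malate (chr9:86581371-86695953), was at 25.7 FPKM in Ctrl against 31.7 FPKM in PGC-1α, and at 39.6 against 33.9 FPKM after OGD. It was called higher after OGD in control cells (0.61), and Ctrl+OGD was its highest library, but with upper quartile scaling the call was lost (0.57). Its mitochondrial relative Me2 was at 45.5 against 57.7 FPKM without and 64.3 against 63.6 FPKM after OGD. Pck2, the mitochondrial form of phosphoenolpyruvate carboxykinase, stayed between 22.6 and 28.2 FPKM.

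The largest difference of any member lay at isocitrate dehydrogenase. Idh3a codes for the catalytic subunit of the NAD-dependent enzyme that makes 2-oxoglutarate in the cycle, and Idh3b and Idh3g code for its other subunits. Idh3a (chr9:54586334-54604661) was at 33.9 FPKM in Ctrl against 82.5 FPKM in PGC-1α, and at 55.3 against 92.3 FPKM after OGD. Both overexpressing libraries were above both controls, and each library after OGD was above its counterpart without OGD. The log2 fold changes were 1.26 for PGC-1α without OGD, 0.73 for PGC-1α with OGD, 0.69 for OGD in control cells and 0.16 for OGD in overexpressing cells. Idh3b was at 81.6 against 89.8 FPKM without and 88.6 against 99.6 FPKM after OGD. Idh3g was at 44.1 against 45.4 FPKM without and 40.1 against 36.7 FPKM after OGD, and neither of them passed 1.5-fold. The proportion of the subunits thus differed between the libraries. The ratio of Idh3a to Idh3b was 0.415 against 0.918 without OGD and 0.624 against 0.927 after OGD, and the ratio of Idh3a to Idh3g went from 0.769 in Ctrl to 2.51 in PGC-1α+OGD.

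Nearly all of the Idh3a level was assigned to transcript Idh3a-205, at 31.7 against 82.3 FPKM without and 49.7 against 91.8 FPKM after OGD. Its annotated coding sequence of 1152 bases begins 54 bases (18 codons) before that of the other transcript, Idh3a-201, which was at 2.17 against 0.139 FPKM without and 5.62 against 0.501 FPKM after OGD. The coding part of its first exon (chr9:54586463-54586543, GRCm38, plus strand) is shown since it is where both transcripts differ in coding sequence, with the bases that are coding only in Idh3a-205 in capitals.
Idh3a-205: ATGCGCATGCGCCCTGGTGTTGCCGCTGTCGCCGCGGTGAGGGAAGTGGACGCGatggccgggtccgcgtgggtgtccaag

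Other enzymes between citrate and 2-oxoglutarate differed by less than 1.5-fold. Citrate synthase, which joins acetyl-CoA to oxaloacetate, is coded by Cs, at 45.7 FPKM in Ctrl against 67.7 FPKM in PGC-1α, and at 62.5 against 72.7 FPKM after OGD. Ctrl was again the low library, and the log2 fold changes of Cs were 0.56 for PGC-1α without OGD, 0.22 for PGC-1α with OGD and 0.45 for OGD in control cells. Aco1, the cytosolic aconitase that also serves as an iron-regulatory protein, stayed between 16.8 and 21 FPKM. Idh1, the cytosolic NADP-dependent isocitrate dehydrogenase, had a single high library, at 75.8 FPKM in PGC-1α against 53.1, 53.2 and 53.7 FPKM in the other 3. Idh2, its mitochondrial counterpart, was at 98.0 FPKM in Ctrl and at 122 to 129 FPKM in the others.

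From 2-oxoglutarate to oxaloacetate, Ogdh and Fh1 were called higher for PGC-1α without OGD. Ogdh (chr11:6291633-6356642), the decarboxylating subunit of the 2-oxoglutarate dehydrogenase complex, was at 26.6 FPKM in Ctrl against 43.3 FPKM in PGC-1α, and at 29.6 against 38.1 FPKM after OGD. Both overexpressing libraries of Ogdh were above both controls (0.68 without and 0.35 with OGD). Dlst, the core of the same complex, had the smaller value without OGD (0.14) and the larger with OGD (0.51), and was highest in PGC-1α+OGD (21.8 FPKM, against 15 to 17.4 FPKM). Fh1, the fumarase gene (chr1:175600374-175625635), was at 40.6 FPKM in Ctrl against 62.0 FPKM in PGC-1α, and at 62.5 against 66.3 FPKM after OGD. As with Mpc1, Ctrl was low and the other 3 libraries were close to each other. With upper quartile scaling, Fh1 no longer passed 1.5-fold for PGC-1α without OGD (0.58). Suclg1, the succinyl-CoA ligase subunit that is part of both forms of the enzyme, was at 53.4 to 73.0 FPKM. Suclg2, the GTP-forming subunit, was at 39.0 to 46.2 FPKM and Sucla2, the ATP-forming one, at 27.4 to 35.5 FPKM, and 0 of these 3 passed 1.5-fold.

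Of the 5 members in the malate-aspartate shuttle, 3 were called higher for PGC-1α without OGD (60%, background 4.91%) and 0 in the other comparisons. Slc25a12, a carrier of the same shuttle, is not a member. It was not called for PGC-1α without OGD (-0.29) and was called in each of the other comparisons, as given below. Got1, the cytosolic aspartate aminotransferase (chr19:43499752-43524605), was at 24.9 FPKM in Ctrl against 48.0 FPKM in PGC-1α, and at 27.5 against 38.4 FPKM after OGD. Its log2 fold change of 0.92 came next to that of Idh3a, and both overexpressing libraries were above both controls. Mdh2, the mitochondrial malate dehydrogenase of the cycle and the shuttle (chr5:135778480-135790398), was at 198 FPKM in Ctrl against 319 FPKM in PGC-1α, and at 279 against 338 FPKM after OGD (0.69 and 0.28). Mdh1, the cytosolic form (chr11:21556787-21572367), was at 46.0 against 71.1 FPKM without and 53.5 against 64.5 FPKM after OGD (0.62 and 0.26). Both malate dehydrogenases thus had overexpressing libraries above controls. Got2, the mitochondrial aminotransferase, was at 72 against 95.0 FPKM without and 82.5 against 100.003 FPKM after OGD. Slc25a11, the carrier that exchanges malate for 2-oxoglutarate, was at 23.7 against 34.7 FPKM without and 25.3 against 29.7 FPKM after OGD. Exons of Got2 and Slc25a11 overlap genes on the opposite strand by 434 and 189 bases.

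Citrate export is served by Slc25a1, the mitochondrial citrate carrier, and Acly, which splits citrate to acetyl-CoA in the cytosol. Slc25a1 was at 21.9 against 28.2 FPKM without and 27.4 against 23.9 FPKM after OGD. Acly was at 29.7 against 35.0 FPKM without and 43.9 against 42.9 FPKM after OGD, and neither gene was called in any comparison. For PGC-1α after OGD, the log2 fold changes of this role had a median of -0.11, and those of the kinases and phosphatase one of -0.0042, while the medians of the other 6 roles were above 0.

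For 4 reactions the set holds a cytosolic and a mitochondrial enzyme. In PGC-1α vs Ctrl the cytosolic minus the mitochondrial log2 fold change was 0.11 for Idh1 and Idh2, -0.07 for Mdh1 and Mdh2, -0.04 for Me1 and Me2, and 0.53 for Got1 and Got2. The aminotransferases thus differed most, and the ratio of Got2 to Got1 was 2.89 against 1.98 without OGD and 3.0 against 2.61 after OGD. For OGD in overexpressing cells the cytosolic enzyme had the lower log2 fold change in all 4 pairs, by -0.45, -0.22, -0.05 and -0.39 in the same order. The 6 cytosolic enzymes of the set had a median of 0.41 for PGC-1α without OGD and 0.03 with OGD. The 13 mitochondrial enzymes of the cycle had 0.41 and 0.22. Whether these medians differ beyond the spread between libraries was not tested.

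**Figure D4:**
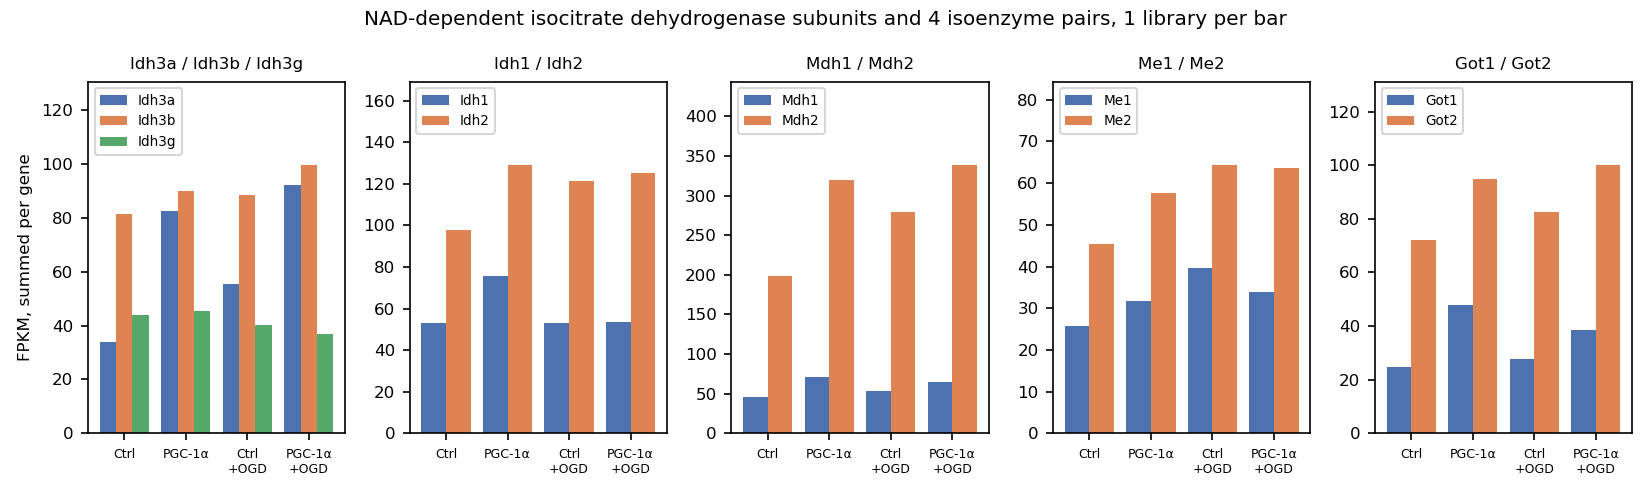
Levels (vertical axes, FPKM from 0, 1 library per bar) of the subunits of NAD-dependent isocitrate dehydrogenase, in the first panel, and of 4 pairs of cytosolic (blue) and mitochondrial (orange) enzymes. Idh3a is below Idh3g in Ctrl (33.9 and 44.1 FPKM) and above it in the other libraries, and Got1 is highest in PGC-1α (48.0 FPKM).

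Of the 36 members, 18 had 1 deposited transcript and 18 had several, and for Acly, Sucla2, Pcx and Mpc1 the transcripts moved against each other. With PGC-1α those of Idh3a did so as well, the minor Idh3a-201 being lower, and all its 2403 bases are shared with Idh3a-205. Suclg2-201 was at 1.70 against 8.98 FPKM without and 1.30 against 7.69 FPKM after OGD. The main transcript Suclg2-204 was at 38.9 against 36.4 and 37.7 against 37.4 FPKM. Acly-201 was at 13.2 FPKM in Ctrl and at 0.0054 to 0.023 FPKM in the other libraries, while Acly-207 was at 2.53 FPKM in Ctrl and at 31.0 to 39.3 FPKM in the others. These transcripts have the same coding sequence of 3273 bases, and Acly-201 has 231 further bases outside it. Acly-203, at 14.0 FPKM in Ctrl and 4.03 to 5.50 FPKM in the others, has a coding exon of 30 bases (10 codons) that both other transcripts lack. That exon (chr11:100503160-100503189, GRCm38, minus strand) is shown in capitals between the flanking bases of the transcript, as the coding difference among these transcripts.
Acly-203: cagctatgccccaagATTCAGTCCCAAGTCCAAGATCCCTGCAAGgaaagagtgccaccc

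The transcripts of Sucla2 divided along with PGC-1α. Sucla2-201 was at 22.5 and 28.8 FPKM in the controls without and with OGD and was listed at 0 in both overexpressing libraries. Sucla2-203 was at 4.85 and 6.72 FPKM in the controls and at 29.6 and 32.6 FPKM in the overexpressing libraries. Both have the same coding sequence of 1389 bases, and Sucla2-203 has 684 further bases outside it. The transcripts of Pcx divided along with OGD. Pcx-204 was at 10.3 and 12.1 FPKM without OGD, and after OGD at 0.666 FPKM in control and listed at 0 in overexpressing cells, while Pcx-201 was at 0.509 and 0.533 FPKM without OGD and at 5.06 and 6.33 FPKM after OGD. The summed levels of Acly and Sucla2 differed less than those of their transcripts. By the transcript with the highest mean alone, the log2 fold change for PGC-1α without OGD would have been 3.18 for Acly and 2.39 for Sucla2, instead of 0.23 and 0.11 for the sums. For Mpc1 it would have been 0.11 instead of 0.62, as Mpc1-201 was listed at 0 in Ctrl and reached 5.64 FPKM in PGC-1α. For Idh3a it would have been 1.35 instead of 1.26. A program that assigns reads to similar transcripts can shift values between them, and whether it did so here was not tested.

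**Figure D5:**
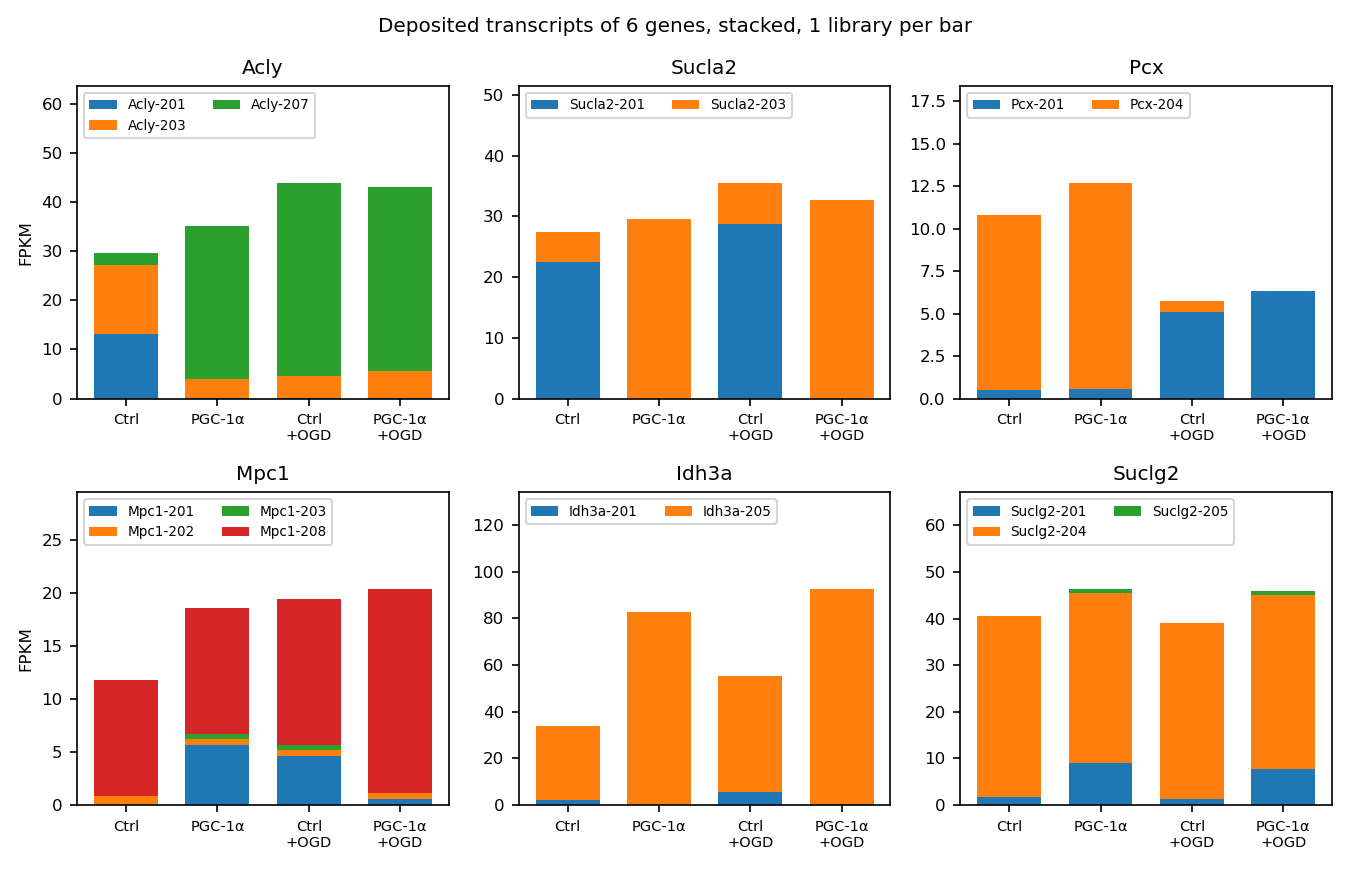
Levels of the deposited transcripts of 6 members, stacked per library (vertical axes, FPKM from 0). For Sucla2 the bars of both controls are mostly Sucla2-201 and those of both overexpressing libraries are wholly Sucla2-203, whereas for Idh3a each bar is mostly Idh3a-205.

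Other genes of the same pathway that are not members were described from lists. Of 16 further citrate cycle, pyruvate and shuttle genes, 12 had a value, with a median log2 fold change of 0.47 for PGC-1α without OGD and 0.21 after OGD. Without OGD, 3 of the 12 (25%) were called higher for PGC-1α and 0 lower, with a background of 4.91% and 5.63%. After OGD, 2 (16.7%) were called higher and 0 lower, with a background of 3.08% and 3.82%. Sdhb, the iron-sulfur subunit of succinate dehydrogenase, was at 59.4 against 93.9 FPKM without and 76.5 against 90.7 FPKM after OGD. Pdk4, a pyruvate dehydrogenase kinase known as a target of PGC-1α, was at 4.90 against 11 FPKM without and 5.31 against 9.96 FPKM after OGD, and was called higher without (1.02) and with OGD (0.80). Among the members, Pdk1 and Pdk3 were called in neither of these comparisons and Pdk2 in that with OGD. Slc25a12, the aspartate-glutamate carrier of the malate-aspartate shuttle, was at 8.58 FPKM in Ctrl against 6.85 FPKM in PGC-1α, and at 4.26 against 11.6 FPKM after OGD. It was called higher for PGC-1α after OGD (1.26), lower for OGD in control cells (-0.87) and higher for OGD in overexpressing cells (0.68). Slc25a10 (0.76) and Pkm (0.60, or 0.34 and not called by its highest transcript) were called higher for OGD in control cells as well.

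Further lists held genes that supply the complexes or feed the cycle from other sides. Among 12 genes for lipoate, thiamine and coenzyme A supply, 0 were called in either comparison of PGC-1α, and Glrx5 (0.84) was called higher for OGD in control cells. Of 8 genes compared for glutamate and glutamine entry, Slc25a22, a mitochondrial glutamate carrier, was at 1.02 FPKM in Ctrl against 7.26 FPKM in PGC-1α, and at 9.29 against 10.0 FPKM after OGD. It was called higher for PGC-1α without OGD (2.03) and for OGD in control cells (2.34), and both calls rest on the low Ctrl library. In each it was the only gene of the list called higher (12.5%, background 4.91% and 6.20%). By its highest transcript it was also called lower for PGC-1α after OGD (-1.37, against 0.10 for the sum). The same held for OGD in overexpressing cells (-0.61, against 0.41). In a list of 7 other 2-oxo acid dehydrogenase genes, 0 were called for PGC-1α. Dbt (-0.97), Ppm1k (-0.72) and Bckdha (-0.61), all of branched-chain amino acid breakdown, were called lower for OGD in control cells (42.9% of the list, background 7.71%), and Gcsh (0.61), named after its value was seen, was called higher (14.3%, background 6.20%). In the glycerol phosphate shuttle, an alternative to the malate-aspartate shuttle, 1 of 3 genes was called higher for PGC-1α without OGD (33.3%, background 4.91%). This was Gpd1l (0.62, or 0.56 and not called by its highest transcript). Among 8 genes for PGC-1α and its partner factors, Esrra, the estrogen-related receptor α, was at 4.73 against 8.75 FPKM without and 5.13 against 7.30 FPKM after OGD. It was called higher without OGD (0.77), and Gabpa was called higher with OGD (0.61, or 0.44 and not called by its highest transcript).

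Motifs of these factors were searched on both strands from 250 bases before to 50 bases after the start of each gene, in RefSeq promoters of GRCm38.p6. Promoters were given for 33 of the 36 members, without Idh3a, Pdp1 and Me2. The estrogen-related receptor motif TNAAGGTCA was in 0 of 33 member promoters, against 1.43% of 27025 genes. The NRF1 core GCATGCGC was in 1 of 33 (3.03%), that of Ogdh, against 3.05% of genes, and the GABP motif CCGGAAGT in 1 of 33, that of Dlst, against 4.31%. For each of the 3 motifs the share of members was thus no higher than that of all genes. The stretches of 30 bases with the matches of Ogdh and Dlst, at chr11:6292532-6292561 and chr12:85110822-85110851 on the plus strand, are shown with the match in capitals, each of them the reverse complement of the motif. They were chosen after the matches were seen.
Ogdh: ctaggtgttgtGCGCATGCgtaactcaact
Dlst: cggccggtctcACTTCCGGttgctgccggg

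The first 210 bases of transcript Idh3a-205 hold 2 matches to the NRF1 core, 1 on each strand and overlapping each other, within the stretch printed for it above. Of 58589 protein-coding transcripts, 413 (0.705%) hold a match in their first 210 bases. This search was made after the sequence of Idh3a-205 had been seen, and a match of letters is not a site of binding.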

How the data were processed

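The authors aligned paired-end reads of poly(A) RNA to GRCm38 with HISAT2 2.1.0 and deposited 1 table of values per Ensembl transcript. These deposited numbers were read as FPKM, since they were never negative and their column sums differed, although no source used here names the unit or the program behind them. Of 25889 transcripts, 25822 (99.7%) matched GENCODE M21 and were summed per gene, and 67 were left out. The lowest maximum of a deposited transcript over the libraries was 0.50 FPKM. A gene without a value may thus have had low levels rather than none. Genes whose mean reached 1 FPKM were compared as differences of log2(FPKM + 1), with 1.5-fold as the threshold from the fold change that the study used. All members were named by role, with full values for those past 1.5-fold and for isoenzyme pairs, and at most 3 called genes per further list and comparison. A gene counted in a further list is not reported here by name. Members and lists were chosen with earlier results of these data known. No test was made, since each group has 1 library. Alternatives were another pseudocount, other filters, 3 scalings, the highest transcript and a 2-fold threshold. The calculations used Python 3.11.15, numpy 2.4.6 and pandas 2.3.3, drawings matplotlib 3.10.9, and were tested on simulated data.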

Additional observations from a re-analysis of the deposited data

Results flagged for a closer look

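Slc25a12 had effects of opposite sign in both contrasts. The log2 fold change for PGC-1α was -0.29 without OGD and 1.26 after OGD, and that for OGD was -0.87 in control and 0.68 in overexpressing cells. With 1 library per group this difference was not tested. The gene has 1 deposited transcript, and 4.26 to 11.6 FPKM is its range over the 4 libraries.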

How the results depend on the processing

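The medians of the members moved by less than 0.1 on the log2 scale under every alternative, and no call changed sign. For OGD in control cells, the number of members called higher fell from 4 to 2 with upper quartile scaling and to 2 with all columns set to the same sum, in both cases without Fh1 and Me1, and Fh1 also passed no longer for PGC-1α without OGD (0.58 in each). Equal column sums moved the median of all genes for OGD in control cells to -0.11 and the calls over all genes from 657 higher and 818 lower to 649 and 1578. They also gave 971 genes called lower for PGC-1α without OGD in place of 597, 552 called higher for PGC-1α after OGD in place of 327, and 950 called lower for OGD in overexpressing cells in place of 553. Median-of-ratios scaling ended the call of Pdpr for OGD in control cells (-0.57) and added Cs for PGC-1α without OGD (0.59), as a pseudocount of 0.1 added Pdhx (0.59). With the transcript of the highest mean in place of the sum, 1 member (Pcx, -0.74) was called lower for PGC-1α after OGD, Sucla2 (2.12) was added to those called higher there, and 1 (Mpc1) higher for OGD in overexpressing cells, and Acly and Sucla2 took the place of Mpc1 for PGC-1α without OGD. For OGD in control cells, that setting ended the calls of Mpc1 (0.31) and Pdpr (-0.44) and added Acly (3.51) as higher and Pdp1 (-0.84) as lower, and equal column sums added Pdp1 as well (-0.61). With the highest transcript, 10437 genes were compared. Calls over all genes for PGC-1α without OGD were then 814 higher and 971 lower in place of 521 and 597. For PGC-1α after OGD they were 609 and 755 in place of 327 and 405. For OGD in control cells 1001 were higher in place of 657, and for OGD in overexpressing cells calls were 779 and 911 in place of 405 and 553. At 2-fold, 1 member (Idh3a) was called higher for PGC-1α without OGD and 0 after OGD, 0 were called higher and 0 lower for OGD in control cells, and 0 were called lower for OGD in overexpressing cells. Over all genes, 2-fold left 156 higher and 162 lower for PGC-1α without OGD, 108 and 114 after OGD, 158 and 206 for OGD in control cells, and 126 and 177 for OGD in overexpressing cells. The 8218 genes whose mean reached 5 FPKM held 363 lower calls for PGC-1α without OGD, 200 higher and 233 lower after OGD, 489 lower for OGD in control cells, and 263 higher and 307 lower for OGD in overexpressing cells. The cause of these changes was not tested. No paired analysis was possible because each comparison sets 1 library against 1, and for the same reason no library could be left out. An additive fit of PGC-1α and OGD over the 4 libraries, which leaves 1 residual degree of freedom and takes any interaction as error, was not run. The depth of the libraries is unknown, so the counting error of a level cannot be given.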
